A study of Mus musculus with 25 samples.

Results

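The region described here is 2 stretches of mouse chromosome 13 that carry the Hist1 clusters of replication-dependent histone genes, chr13:21700001-22150000 and chr13:23500001-23900000 (mm9), cut into 1 kb bins on each strand. The intervals are 450 kb and 400 kb long and hold 1700 bins. Of these, 646 held at least 1 crosslink event in some library, out of 1259336 bins with an event in the whole series, which leaves 1258690 in the rest of the genome. The intervals were chosen by their crosslink counts, the deposited scores of these same libraries, so their levels are given as a description. Tests are given for differences between groups of libraries.

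The libraries map where SRSF7 touches RNA in P19, an embryonal carcinoma cell line from mouse. The method is iCLIP, in which ultraviolet light at 254 nm joins protein to RNA and the end of each cDNA marks the crosslinked nucleotide. Of the UV-treated libraries precipitated with an anti-EGFP antibody, 2 come from cells with the variant SRSF7mutZn-GFP (mutZn), 2 from cells with SRSF7D27aa-GFP (D27aa) and 3 from cells that overexpress SRSF7-GFP (WT). Libraries precipitated with an anti-SRSF7 antibody are titled RRM_OE (2), endo_OE (2) and GFP_OE (2), all with the genotype label SRSF7-GFP OE, and endo_WT (1) from cells labelled WT. In piCLIP, SRSF7-GFP was precipitated from polysomal (2 libraries) and monosomal (2 libraries) fractions. Controls are 1 library without UV for each of mutZn, D27aa and WT, 1 without UV and 1 without antibody for the anti-SRSF7 experiment, and 1 IgG library from each of the polysomal and monosomal fractions, whose antibody field nevertheless reads anti-EGFP. All cells are P19, and apart from endo_WT all carry a GFP-tagged SRSF7 beside their own. The sources used here name neither the promoter of the transgenes nor the number of clones.

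Replication-dependent histone genes supply new chromatin with protein during DNA replication. They have no introns, and their mRNAs end in a conserved stem-loop in place of a poly(A) tail, with the cut made just after it. SRSF7 is an SR protein that reads RNA through an RNA recognition motif and a zinc knuckle, and it is known for roles in splicing, in 3′ end choice and in mRNA export, including the export of intronless histone mRNA. Histone genes of 1 type are near copies of each other, so reads from them can be lost or misplaced when only unique matches are kept. How multiple matches were handled is not stated in the sources used here.

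No mm9 annotation was used, so bins and blocks are named by strand and position. In the RefSeq gene table of another mouse assembly (GRCm38.p6), used only for names, lengths and neighbours, 2 groups of Hist1 genes lie on chromosome 13, with 24 and 32 members. The 43 core histone genes of 1000 nt or less run from 375 to 911 nt with a median of 478 nt, and the 6 linker histone H1 genes run from 725 to 794 nt. The same table places 31 tRNA genes between those histone genes, with lengths of 72 to 106 nt and a median of 74 nt. Which gene lies under which mm9 block was not determined.

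Depth differed by orders of magnitude and limits every comparison. The totals were 11782376 and 6436730 events in mutZn, 376870 and 388768 in D27aa, and 221746, 1099389 and 3952779 in WT. The anti-SRSF7 libraries with UV held 17763 to 471705 events, the piCLIP immunoprecipitates 18357 to 52553, and the controls 1153 to 89070. Levels below are events per 1000000 events placed on assembled chromosomes (CPM), and intervals on them are exact binomial 95% intervals that cover counting error only. Nothing beyond the word biological in the design text says how replicates were kept apart, so p-values measure the spread between these libraries. The file headers number some replicates otherwise than the titles used here. They give WT replicates 3 and 4 the same replicate number and the same library identifier (lib_id). Libraries that share this identifier are called a sequencing run, or run, below, though the field does not say that they were sequenced together. The levels of WT replicates 3 and 4 in the intervals differed by more than their counting intervals (2060.1 to 2234.1 and 1916.9 to 2004.4 CPM). This does not show that they are separate biological replicates. Both were kept, WT is counted as 3 libraries, and no repeat merged these 2.

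Crosslinks were concentrated in a small part of the 2 intervals. By the mean of the mutZn, D27aa and WT group means, the 646 bins held 3310.9 CPM in all, of which the strongest bin held 17.5%, the strongest 12 held 45.6% and the strongest 50 held 79.5%. Bins above 10 CPM numbered 69, while 1526 of the 1700 bins were at 1 CPM or less. The 12th bin stood at 54.8 CPM and the 13th at 54.2 CPM, so the list of 12 has no natural edge. Among all bins of the genome these 12 held ranks 19 to 350.

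Most of the level lay in blocks shorter than the histone gene models above, which does not tell which genes the blocks belong to. Windows of 50 nt at 0.5 CPM or more, joined over gaps of up to 100 nt, gave 119 dense blocks of at least 100 nt, which covered 1.42% of the intervals and held 91.6% of the level. Long blocks of 300 nt or more, a class that includes the histone gene lengths above, numbered 19, had a median length of 450 nt and held 26.3% of the level. Short blocks numbered 100, had a median length of 150 nt and held 65.3% of the level. Within short blocks the shortest stretch with 80% of the level had a median of 44.5 nt, against 190 nt within long blocks. The length of 300 nt was set after the levels were seen, and 10 blocks measured 250 nt and 7 measured 300 nt. The signal is therefore called by its blocks below and not by gene. Both strands and both intervals hold blocks, with 59 on the plus strand and 60 on the minus strand.

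Summed over both intervals, mutZn libraries held 2823.7 and 2552.6 CPM, D27aa libraries 4724.6 and 4508.1 CPM, and WT libraries 3778.4, 2145.8 and 1960.3 CPM. Both D27aa libraries were above all mutZn and WT libraries, and the mutZn libraries lay within the WT range. The D27aa mean was 4616.4 ± 153.1 CPM and the WT mean 2628.1 ± 1000.5 CPM (SD, n = 2 and 3), a ratio of 1.76. An exact two-sided permutation test gave p = 0.2, the smallest p that 2 against 3 libraries allow, and 0.686 after adjustment over the 8 totals compared. For mutZn, at 2688.1 ± 191.7 CPM (SD, n = 2), the ratio to WT was 1.02 and the exact permutation p was 1. The ratio of mutZn to D27aa was 0.582, with an exact permutation p of 0.333, again the smallest that 2 against 2 libraries allow.

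Sequencing runs, in the sense of a shared header identifier, hold more than 1 of these groups in 2 cases. In the run with mutZn replicate 4, D27aa replicate 2 and WT replicates 3 and 4, mutZn was 1.24 times and D27aa 2.2 times the WT mean, and the ratio of mutZn to D27aa was 0.566. In the run that D27aa replicate 1 shared with WT replicate 2, the ratio of D27aa to WT was 1.25. WT replicate 2 stood apart from the other WT libraries and near D27aa, and it is the shallowest of the 3, so comparisons with WT were repeated without it. Every bin named below as called against WT kept its call in that repeat.

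**Figure D1:**
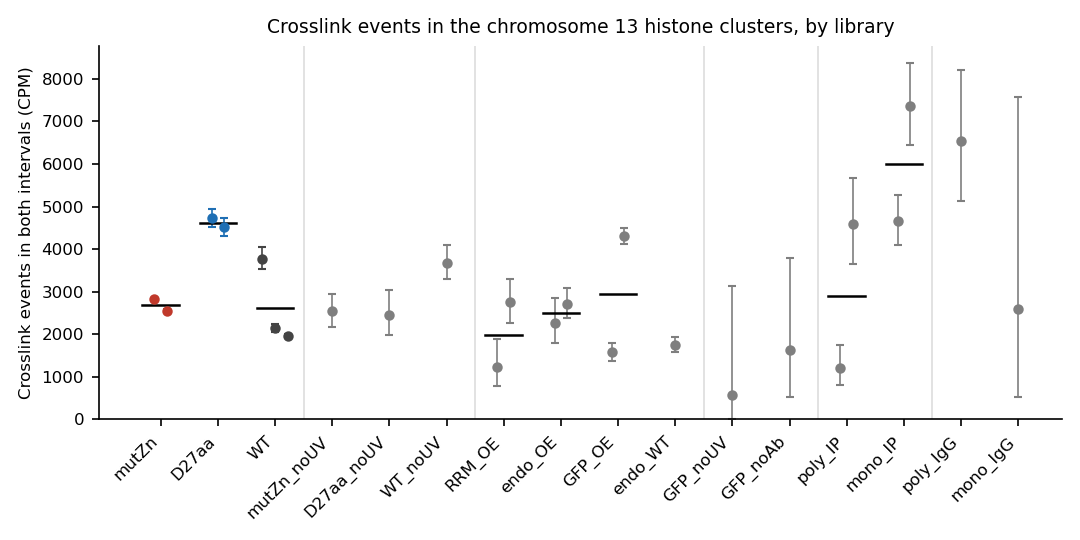
Crosslink events in both chromosome 13 intervals per library (vertical axis, CPM), by group along the horizontal axis; points are libraries with exact binomial 95% intervals and black lines are means of groups with 2 or 3 libraries. The D27aa libraries sit at 4724.6 and 4508.1 CPM, above the mutZn and WT libraries, and the control libraries spread from 561.8 to 6542.4 CPM.

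The control libraries without UV had shares of events in the intervals of the same size as most UV libraries. Without UV, mutZn held 2535.9 CPM (95% interval 2168.3 to 2947.7, from 169 events), D27aa 2463.1 CPM (1970.6 to 3041.0, 86 events) and WT 3674.3 CPM (3287.4 to 4094.0, 327 events). Of the 3 groups, D27aa had both UV libraries above the interval of its control, both mutZn libraries lay within theirs, and WT replicates 3 and 4 lay below theirs. Controls have 1 library each, so this has no replicate check. By the header identifier, the WT control shares no run with a WT library with UV. For WT, UV and run therefore cannot be told apart, here or in the comparisons by block and bin below. In the anti-SRSF7 experiment the library without UV held 1 event in the intervals and the library without antibody held 5, so their 561.8 and 1629.2 CPM carry little information. The CPM of a control is a share of its own small total and says nothing about how much RNA was recovered.

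Short blocks held more in both D27aa libraries and in WT replicate 2 than in the mutZn libraries and the other WT libraries. They held 1357.6 and 1244.1 CPM in mutZn, 3521.6 and 3321.2 CPM in D27aa, and 3015.5, 1201.7 and 1066.7 CPM in WT. WT replicate 2 again stood with D27aa, and WT replicates 3 and 4 with mutZn. As a share of the intervals' events, short blocks held 48.1% and 48.7% in mutZn, 74.5% and 73.7% in D27aa, and 79.8%, 56% and 54.4% in WT. In the controls without UV these shares were 53.3% in mutZn (95% interval 45.4 to 61), 47.7% in D27aa (36.8 to 58.7) and 56% in WT (50.4 to 61.4). D27aa and WT replicate 2 with UV lay above the interval of their control, while mutZn and the other WT libraries lay within theirs. Without the strongest block, the shares were 45.8% and 46.6% in mutZn, 65.6% and 65.3% in D27aa, and 72.2%, 51.9% and 50.3% in WT, in the same order. Because blocks and classes were set after seeing the levels, no test is given for them. Blocks were drawn from the UV libraries alone, and in CPM a single event weighs more in a shallow library. Outside blocks lay 4.66% of interval events in WT replicate 2 and 6.3% and 5.65% in D27aa. The other WT libraries had 10.95% and 12.88% there, and mutZn 12.05% and 12.95%. Shares in blocks, and their contrast with controls, can therefore depend on depth and on how blocks were drawn.

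Long blocks differed less between the groups. They held 1125.9 and 977.9 CPM in mutZn, 905.6 and 932 CPM in D27aa, and 586.9, 709.2 and 641.1 CPM in WT. The libraries of both variants were above all 3 WT libraries, by group means of 1051.9 CPM in mutZn and 918.8 CPM in D27aa against 645.7 CPM in WT. Without UV, long blocks held 900.3 CPM in mutZn, 1088.3 CPM in D27aa and 1224.8 CPM in WT, and each WT library with UV was below that control.

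**Figure D2:**
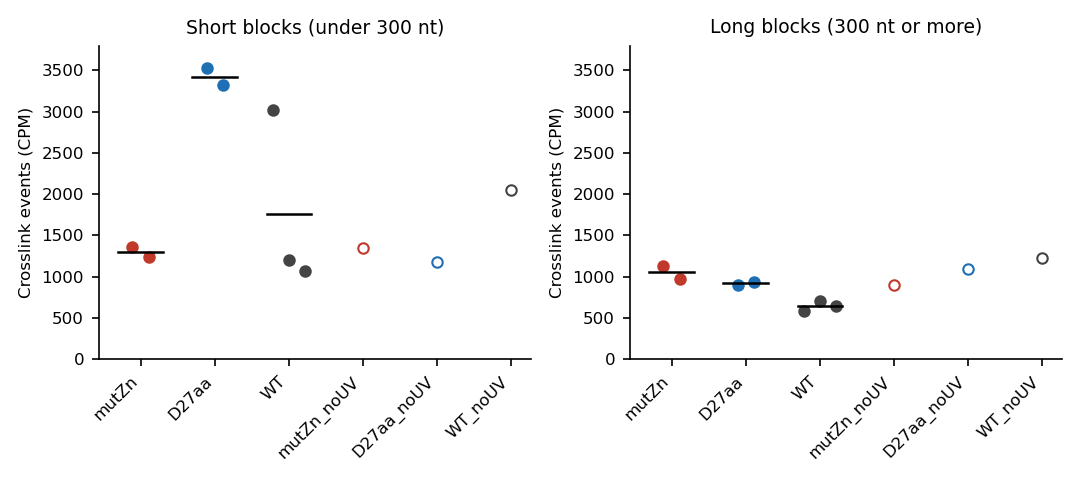
Crosslink events (vertical axes, CPM) in short blocks on the left and long blocks on the right, by group with filled points for UV libraries, open points for the library without UV and black lines for means. Short blocks stay between 1244.1 and 1357.6 CPM in mutZn and reach 3521.6 and 3321.2 CPM in D27aa, while long blocks lie between 586.9 and 1224.8 CPM in every group.

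The strongest block of the region was a spike of 100 nt on the minus strand at chr13:22113001-22113100, whose core of 28 nt held 80% of its level. Its bin, chr13:22113001-22114000, held 118 and 104.6 CPM in mutZn, 1229.6 and 1091.6 CPM in D27aa, and 1038.3, 183 and 162 CPM in WT. Both mutZn libraries were below every WT and D27aa library, and WT replicate 2 was close to D27aa. The library without UV held 300.1 CPM in mutZn, 229.1 CPM in D27aa and 370.8 CPM in WT. By a negative binomial quasi-likelihood test across all bins, mutZn was lower than D27aa by a log2 fold change (± SE) of -3.36 ± 0.39 (Benjamini-Hochberg adjusted p = 8.69e-08) and lower than WT by -1.70 ± 0.36 (adjusted p = 0.00105). The call against WT was lost with the sequencing run as a block (-1.02), with a looser filter on low bins (-1.23) and without mutZn replicate 3 (-1.94) or 4 (-1.78), and it was kept without WT replicate 2.

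The next block, also 100 nt on the minus strand, lay at chr13:22027351-22027450 with a core of 9 nt. Its bin, chr13:22027001-22028000, held 47.7 and 36.4 CPM in mutZn, 231.1 and 242 CPM in D27aa, and 334.1, 100.1 and 58.5 CPM in WT. The library without UV held 45 CPM in mutZn (3 events), 85.9 CPM in D27aa (3 events) and 179.8 CPM in WT (16 events). The mutZn libraries were again the lowest, with a log2 fold change (± SE) of -2.46 ± 0.34 against D27aa (adjusted p = 2.04e-06) and -1.47 ± 0.31 against WT (adjusted p = 8.26e-04) by the quasi-likelihood test. Without mutZn replicate 3 or 4 the call against WT was lost, at -1.92 and -1.54.

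The third block, chr13:21998951-21999050 on the plus strand, crosses the edge between 2 bins, and its sides behaved differently. The bin with its 3′ side, chr13:21999001-22000000, held 32.9 and 24.2 CPM in mutZn, 156.7 and 162.2 CPM in D27aa, and 275.4, 83.8 and 76.7 CPM in WT. The bin with its 5′ side, chr13:21998001-21999000, held 41.2 and 47.6 CPM in mutZn, 7.97 and 7.72 CPM in D27aa, and 4.51, 47.3 and 59.2 CPM in WT. With UV, the 3′ side was thus lowest in mutZn and the 5′ side low in D27aa and in WT replicate 2. The D27aa values in the 5′ bin are 3 events in each library, and WT replicate 2 had fewer than 3 there. The contrast on the 5′ side therefore rests on few events in these libraries. The library without UV held 15 CPM in mutZn (1 event), 28.6 CPM in D27aa (1 event) and 112.4 CPM in WT (10 events) in the 3′ bin. In the 5′ bin it held 60, 57.3 and 45 CPM in the same order, the D27aa value from fewer than 3 events. On the 3′ side the log2 fold change of mutZn was -2.45 ± 0.32 against D27aa (adjusted p = 4.13e-07) and -1.91 ± 0.28 against WT (adjusted p = 3.73e-06). On the 5′ side mutZn was higher than D27aa by 2.51 ± 0.70 (SE, adjusted p = 8.93e-04) and D27aa lower than WT by -2.69 ± 0.70 (adjusted p = 4.69e-04), all by the quasi-likelihood test. Both 5′ calls were lost with limma-voom, at 2.30 and -2.42, and the second also without WT replicate 4, at -2.28.

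Of the remaining strongest bins, some followed the same order and others did not. The minus-strand bin chr13:23592001-23593000 held 20.3 and 17.6 CPM in mutZn, 100.9 and 95.3 CPM in D27aa, and 85.8, 30 and 28.4 CPM in WT, with mutZn again lowest. The plus-strand bin chr13:23626001-23627000 held 108.3 and 98.4 CPM in mutZn, 193.9 and 82.4 CPM in D27aa, and 27.1, 142 and 94.2 CPM in WT, and all groups overlapped there. In the bins chr13:23647001-23648000, chr13:23714001-23715000 and chr13:23855001-23856000, each in a long block, the mutZn libraries were above every D27aa and WT library, at 130.4 and 114.3, 109.1 and 91, and 98.5 and 88.2 CPM.

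**Figure D3:**
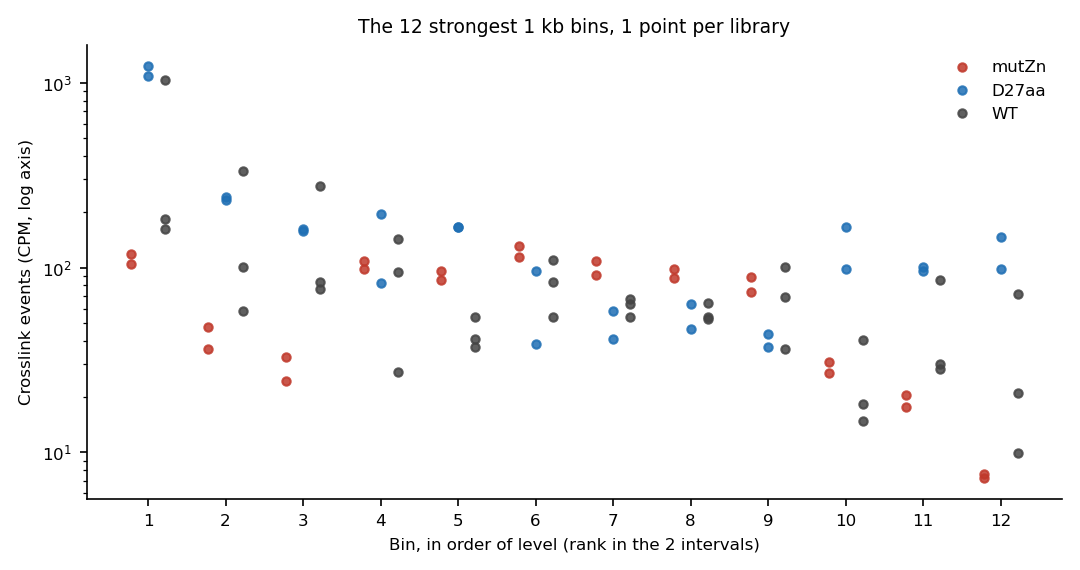
Crosslink events per library (vertical axis, CPM on a log scale) in the 12 strongest 1 kb bins, ordered by level along the horizontal axis, with 1 point per library for mutZn, D27aa and WT. In bins 1 to 3, 11 and 12 the mutZn points lie below all D27aa and WT points, while in bins 6 to 8 they lie above them.

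At nucleotide resolution, events in each of these 3 blocks were spread differently between the groups. Distances here are from the block's 5′ edge, and the median is taken over events. In the strongest block the median distance was 48 and 47 nt in mutZn, 72 nt in both D27aa libraries, and 66.5, 56 and 50 nt in WT. A single nucleotide, 72 nt from the edge, held 9.37% of the block's events in mutZn replicate 3, 27.6% and 31.8% in D27aa, and 26.5% and 16.9% in WT replicates 2 and 3. In mutZn replicate 4 and WT replicate 4 the top position lay at 40 nt instead, with 9.25% and 7.82%. In the block at 22027351 the median was 47 and 48 nt in mutZn, 70 nt in both D27aa libraries, and 69, 68 and 66 nt in WT. In the block at 21998951 it was 41 and 24 nt in mutZn, 80 and 78 nt in D27aa, and 78, 68 and 62 nt in WT. In all 3 blocks the mutZn medians lay nearer the 5′ edge than those of every D27aa and WT library with UV. Within WT the medians also moved toward that edge from replicate 2, the shallowest, to replicate 4, the deepest. The mutZn libraries are deeper still, and an effect of depth was not tested. Without UV the medians in the 3 blocks were 61, 71 and 25 nt in mutZn, 41.5, 50 and 26 nt in D27aa, and 60, 69 and 77 nt in WT. These rest on 3 to 33 events. The nucleotide at 72 nt in the strongest block, 22113028 on the minus strand, was also the top position in endo_OE replicate 5, GFP_OE replicates 3 and 4, endo_WT, monosomal replicate 1 and polysomal replicate 2. It was not in monosomal replicate 2, where 22113059 held 9 of 24 events, or in RRM_OE replicate 4, where 22113027 held 6 of 10. In libraries without UV it held 3 of 20 events for mutZn and 6 of 33 for WT, while in D27aa without UV 22113066 held 3 of 8.

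**Figure D4:**
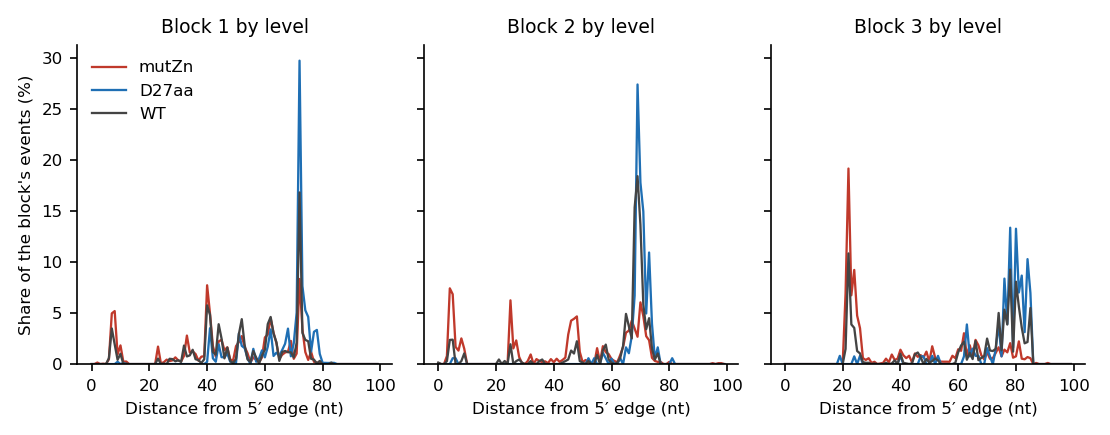
Share of each block's events (vertical axis, %, mean over the libraries of a group) against distance from the block's 5′ edge (horizontal axis, nt) in the 3 strongest blocks. D27aa events gather at 72 nt in the first block and at 69 nt in the second, while in the third block the position at 22 nt is the strongest in both mutZn libraries (12.1% and 26.2%) and in WT replicates 3 and 4 (15.6% and 17%).

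Other narrow spikes were highest in D27aa. In the minus-strand bin chr13:23618001-23619000, where 1 nucleotide carried 75% of the block's level, mutZn held 7.22 and 7.62 CPM, D27aa 98.3 and 146.8 CPM, and WT 72.2, 20.9 and 9.88 CPM. The order of groups was D27aa above WT above mutZn, with every WT library between the other groups. By the quasi-likelihood test D27aa exceeded WT by a log2 fold change (± SE) of 2.94 ± 0.32 (adjusted p = 1.15e-08), and mutZn was below D27aa by -4.03 ± 0.30 (adjusted p = 4.47e-13) and below WT by -1.09 ± 0.30 (adjusted p = 0.00965), the last of these lost without mutZn replicate 3 (-1.21) or 4 (-1.24). The WT library without UV held 213.5 CPM here, more than any library with UV. In the bin chr13:23775001-23776000 on the same strand, mutZn held 26.8 and 30.6 CPM, D27aa 164.7 and 97.8 CPM, and WT 40.6, 18.2 and 14.7 CPM, a log2 fold change (± SE) for D27aa over WT of 2.91 ± 0.30 (adjusted p = 2.61e-09). That call was lost when each position was counted once (1.11). At chr13:22107001-22108000, minus strand, mutZn held 4.42 and 7.31 CPM against 39.8 and 97.8 CPM in D27aa, a log2 fold change (± SE) of -3.63 ± 0.31 (adjusted p = 2.50e-10), lost when each position was counted once (-2.46). This bin passed the filter on low counts only through the D27aa libraries, where it is high, so its call is given as a description.

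The remaining bins named for D27aa over WT lay at blocks of both kinds. On the plus strand chr13:23673001-23674000, with a block of 450 nt, held 95.7 and 85.2 CPM in mutZn, 164.7 and 164.8 CPM in D27aa, and 54.2, 41 and 37 CPM in WT. The 3 groups did not overlap, and D27aa was above WT by a log2 fold change (± SE) of 2.08 ± 0.27 (adjusted p = 5.95e-07). The libraries without UV held 150.1 CPM for mutZn, 171.8 for D27aa and 123.6 for WT in the same bin. On the minus strand, chr13:22086001-22087000 held 53.1 and 105.6 CPM in D27aa, against 13.5, 17.3 and 11.4 CPM in WT (log2 fold change 2.66 ± 0.28, adjusted p = 1.12e-08). The bin chr13:23852001-23853000 on that strand held 87.6 and 74.7 CPM in D27aa, against 45.1, 17.3 and 18 CPM in WT (2.07 ± 0.30, adjusted p = 7.42e-06).

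Across the region, mutZn and WT differed in most bins that could be tested. The filter on low counts passed 18861 bins genome-wide, 80 of them among the 1700, and the rest of the region was too sparse to test. At an adjusted p of 0.05 or less, 57 of the 80 were called for mutZn against WT, with 49 higher and 8 lower, where 24.4% of all tested bins were called (12.9% higher and 11.5% lower). The 49 include chr13:23653001-23654000 and chr13:23842001-23843000, which passed the filter only through the mutZn libraries, where they are high. The counts are therefore a description. The median log2 fold change was 0.77 over the 80 bins and 0.00 over all tested bins. All 8 bins that fell were bins whose main block is short, but 32 of the 55 bins with a short block rose. Among the 23 bins with a long block 17 rose and 0 fell (18 differed at an unadjusted p under 0.05). The median log2 fold change was 0.84 over bins with a short block and 0.76 over those with a long block. The direction of the count depends on the measure, since with each position counted once, 5 bins were higher and 11 lower. In the block of 100 nt at 22113001 the mutZn libraries had events at 61 and 64 positions, against 38, 48 and 57 in WT, so counts by position spread far less between the libraries than counts by event. With the run as a block 25 bins were called, without mutZn replicate 3 there were 10, without mutZn replicate 4 there were 18, and without WT replicate 4 there were 21, with more higher than lower in each. Without WT replicate 2 the count was 58.

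The bins that rose most in mutZn against WT were weak ones. The bins chr13:23653001-23654000 and chr13:23654001-23655000 on the minus strand share a block of 600 nt. The first held 21.3 and 17.4 CPM in mutZn, against 9.03, 2.73 and 4.56 CPM in WT, and the second held 17.6 and 14.3 CPM in mutZn, against 0, 5.46 and 4.05 CPM in WT. No mutZn library overlapped WT in either, and by the quasi-likelihood test the log2 fold changes were 2.23 ± 0.34 (adjusted p = 7.29e-08) and 2.01 ± 0.37 (adjusted p = 3.65e-06). The first bin passed the filter on low counts only through the mutZn libraries, where it is high, so its call is given as a description. The second call was lost without mutZn replicate 3 (1.89) or 4 (2.18) and without WT replicate 4 (1.88). In the minus-strand bin chr13:22132001-22133000 mutZn held 28.4 and 27.5 CPM, against 18.1, 5.46 and 7.6 CPM in WT (1.94 ± 0.25, adjusted p = 3.48e-09). On the plus strand, chr13:21809001-21810000 held 40.3 and 42.3 CPM in mutZn, against 18.1, 12.8 and 12.2 CPM in WT (1.77 ± 0.22, adjusted p = 8.24e-09, lost when each position was counted once, at 0.53). The bin chr13:23842001-23843000 held 12.9 and 12.8 CPM in mutZn, against 0, 8.19 and 2.78 CPM in WT (1.78 ± 0.48, adjusted p = 0.00224, lost with the run as a block, at 1.54). It too passed the filter only through the mutZn libraries, so that call is likewise a description. Of these bins, those at 23654001, 22132001 and 21809001 were also called higher in D27aa against WT. Their log2 fold changes were 2.05, 1.58 and 1.29 (quasi-likelihood adjusted p = 0.0444, 0.0382 and 0.0486). The bins at 23653001 and 23842001 were not called there, at 0.61 and 0.05. The fifth bin that fell, chr13:23559001-23560000 on the plus strand, held 10.5 and 12.8 CPM in mutZn, against 126.4, 33.7 and 14.7 CPM in WT (-1.27 ± 0.31, adjusted p = 0.00377). That call was lost in 4 settings, at -1.03 with each position counted once, -0.96 with the run as a block, and -1.35 and -1.55 without mutZn replicate 3 or 4.

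D27aa against WT gave 27 calls among the same 80 bins, 26 higher and 1 lower, where 4.27% of all tested bins were called (2.52% higher and 1.74% lower). The 26 include chr13:22107001-22108000, which passed the filter only through the D27aa libraries, so these counts too are a description. Of the 26, 16 were also among the 49 bins called higher in mutZn against WT. The median log2 fold change was 0.75 over the 80 bins and -0.04 over all tested bins. By block, 18 of 55 bins with a short block and 7 of 23 with a long block were higher. Counted by position, 16 bins were higher and 0 lower, and the count was 11 without WT replicate 4 and 14 without D27aa replicate 2. The comparisons with WT share the WT libraries.

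Set directly against each other, the variants differed in 29 of the 80 bins, with 6 higher and 23 lower in mutZn, where 5.94% of all tested bins were called (2.31% higher and 3.63% lower). The 23 include chr13:22107001-22108000, which passed the filter only through the D27aa libraries, so these counts are likewise a description. Of the 55 bins with a short block 17 were lower and 3 higher in mutZn, and of the 23 with a long block 4 were lower and 3 higher. The medians of the log2 fold changes were -0.39 over bins with a short block and 0.59 over those with a long block, beside 0.09 over all tested bins. With each position counted once 21 bins were called, all lower in mutZn. The count was 18 with a looser filter and 14 with the run as a block, and 16, 17 and 13 without mutZn replicate 3, mutZn replicate 4 or D27aa replicate 2.

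Among bins higher in mutZn than in D27aa, chr13:23713001-23714000 on the minus strand lies in the strongest long block, which spans 900 nt. It held 101.9 and 77.3 CPM in mutZn, against 31.9 and 33.5 CPM in D27aa, a log2 fold change (± SE) of 1.48 ± 0.38 (adjusted p = 0.00503). The bin chr13:23646001-23647000 on the plus strand, at the start of a block of 800 nt, held 28.8 and 27.8 CPM in mutZn, against 5.31 and 15.4 CPM in D27aa (1.46 ± 0.52, adjusted p = 0.0376). Neither call held in every setting. The first was lost with the run as a block (0.96), with each position counted once (0.19) and without mutZn replicate 3 (1.25), and the second in 8 of 9 settings. The bins chr13:23663001-23664000 on the plus strand and chr13:23790001-23791000 on the minus strand were higher by 2.36 ± 0.61 (adjusted p = 3.61e-04) and 2.23 ± 0.85 (adjusted p = 0.0284), and both calls were lost with limma-voom, at 2.18 and 1.87, and with the run as a block, at 1.65 and 2.20. The first was also lost with each position counted once (1.22) and the second without D27aa replicate 1 (3.04) or 2 (2.07).

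In 4 of the 5 strongest long blocks, the shortest stretch with 80% of the level measured 584 to 647 nt. This stretch is only a part of each block and is not comparable with a gene length. The block at chr13:23713551-23714450 held 187.2 CPM in mutZn, 82.5 in D27aa and 102.1 in WT by group means. Those at chr13:23855501-23856350, chr13:23646901-23647700 and chr13:21871601-21872500 held 145, 148.1 and 140.3 CPM in mutZn, 95.6, 77.5 and 70.6 CPM in D27aa, and 92.8, 106.6 and 104.3 CPM in WT. In all 4 the mutZn mean was the highest of the 3 groups with UV. At least 1 library without UV was above that mean in each, with 337.1 CPM for WT in the first, 195.1 CPM for mutZn in the second, 224.7 CPM for WT in the third, and 150.1 CPM for mutZn and 146.1 CPM for WT in the fourth, though these rest on few events. The other strong one, chr13:23673401-23673850, had its level in 92 nt and was highest in D27aa, with 89.8 CPM in mutZn, 164.7 in D27aa and 44 in WT.

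Pooled over long blocks, a larger share of D27aa events lay near the 3′ edge, and most of those in the last 50 nt came from 2 blocks. Long blocks run from 300 to 900 nt, so 100 nt is a larger part of some than of others. The pooled shares therefore also depend on how a library's events divide among blocks, and they were not adjusted for this. Of all long-block events, the last 100 nt held 13.3% and 13.1% in mutZn, 29.6% and 24.3% in D27aa, and 16.9%, 9.88% and 10.5% in WT. The last 50 nt held 3.42% and 3.48% in mutZn, 11.7% and 11% in D27aa, and 7.69%, 4.24% and 3.67% in WT. Both D27aa libraries exceeded all mutZn and WT libraries at either distance, and the exact 95% interval of D27aa replicate 2 at 100 nt, 20 to 29.1%, overlaps that of WT replicate 2, 10.9 to 24.5%. In the D27aa library without UV, 3 of 38 long-block events lay in the last 100 nt. The block at chr13:23673401-23673850 gives an example, as its last 50 nt held 4.9% and 5.9% of its events in mutZn, 35.5% and 29.7% in D27aa, and 33.3%, 11.1% and 2.74% in WT. The minus-strand block at chr13:21845251-21845750 had a larger share in its last 50 nt in every group, though D27aa had 14 and 15 events in the whole block and WT replicate 2 had 5. The share was 29% and 30.9% in mutZn, 78.6% and 60% in D27aa, and 60%, 45.2% and 36.1% in WT. Of the 40 D27aa events in the last 50 nt in each library, the block at 23673401 supplied 22 and 19 and the block at 21845251 supplied 11 and 9. Without these 2 blocks, a repeat chosen after seeing the data, the last 50 nt held 1.76% and 1.53% in mutZn, 2.64% and 4.24% in D27aa, and 2.65%, 1.99% and 1.48% in WT, so D27aa and WT overlapped. The last 100 nt then held 6.22% and 6.3% in mutZn, 12.1% and 8.48% in D27aa, and 7.08%, 4.98% and 5.42% in WT. The strongest long block, at 23713551, had few events in its last 50 nt. These held 11 of 2456 and 1 of 1067 events in mutZn, 1 of 34 and 0 of 29 in D27aa, and 0 of 17, 0 of 139 and 0 of 407 in WT. In D27aa the last 50 nt held 0 of 41 and 0 of 32 events in the block at 23855501. They held 0 of 38 and 0 of 21 in the block at 23646901, and 0 of 26 and 0 of 28 in the block at 21871601.

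**Figure D5:**
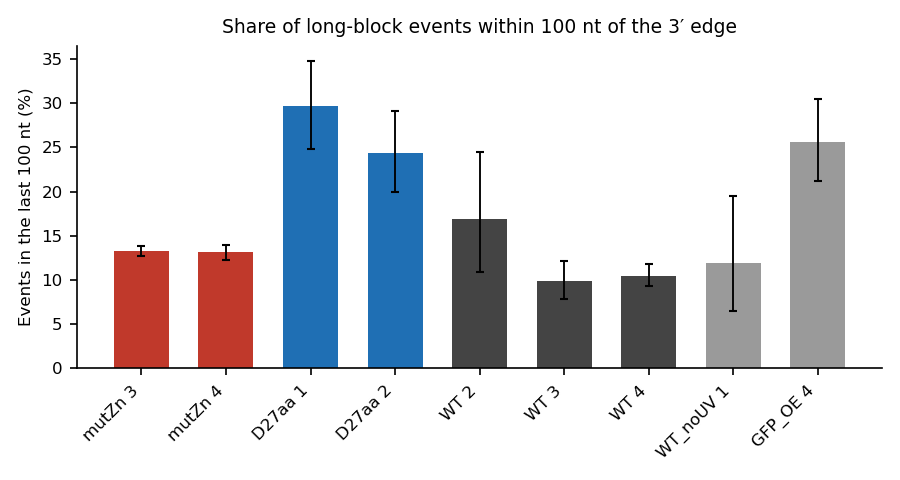
Share of long-block events within 100 nt of the block's 3′ edge (vertical axis, %) for each library with at least 100 such events, with exact binomial 95% intervals. Shares pool blocks of 300 to 900 nt and are not adjusted for block length. The mutZn bars stand at 13.3% and 13.1%, the D27aa bars at 29.6% and 24.3%, and the WT bars at 9.88 to 16.9%.

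The antibody comparison sets the anti-SRSF7 pull-down GFP_OE against the anti-EGFP pull-down WT. GFP_OE libraries held 1571.2 and 4304.7 CPM in the intervals and WT libraries 3778.4, 2145.8 and 1960.3 CPM, an exact permutation p of 1. The GFP_OE libraries lay on either side of all 3 WT libraries. Short blocks held 69.8% and 73.1% of GFP_OE events in the intervals, against 79.8%, 56% and 54.4% in WT. In the strongest bin GFP_OE held 355.3 and 776.5 CPM and WT 1038.3, 183 and 162 CPM, which overlap. Of 39 region bins tested, the quasi-likelihood test called 0 (6 at an unadjusted p under 0.05), where 0.537% of 3540 bins were called (0.508% higher and 0.0282% lower). With limma-voom 9 were called, with a looser filter 5 of 84, and without WT replicate 2 there were 6. Of the 24 bins with a short block 22 had a positive log2 fold change (median 0.69) and of the 14 with a long block 6 (median -0.57), without a call. The last 100 nt of long blocks held 25.6% of events in GFP_OE replicate 4 (95% interval 21.2 to 30.5). By the header identifier, all anti-SRSF7 libraries belong to other runs than the WT libraries, so antibody and run cannot be told apart.

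The overexpression libraries were too shallow for bin tests. RRM_OE held 1239.8 and 2747.1 CPM, endo_OE 2271.8 and 2717.4 CPM, the single endo_WT library 1755.4 CPM, and GFP_OE the values above. Exact permutation p-values were 0.667 for RRM_OE and 1 for endo_OE against GFP_OE. Replicate 3 of RRM_OE and of GFP_OE shared a run, as did replicate 4 of both, and within these runs the ratio of RRM_OE to GFP_OE was 0.789 and 0.638, with 1 library a side. In the run with GFP_OE replicate 4, the mean of endo_OE was 0.58 times that library. Only 2 region bins were tested among 280, and 0 were called in either comparison by the quasi-likelihood test or limma-voom (1 at an unadjusted p under 0.05 for RRM_OE, 0 for endo_OE), where 0% of all bins were called. In the strongest bin, RRM_OE held 56.4 and 232.8 CPM and GFP_OE 355.3 and 776.5 CPM, a log2 fold change (± SE) of -1.99 ± 1.01 (adjusted p = 0.813). In the bin at 21999001 RRM_OE held 112.7 and 256.1 CPM and GFP_OE 86.8 and 331 CPM, which overlap (-0.28 ± 0.93, adjusted p = 0.981). On simulated data the test recovered 41.9% of 8-fold changes in the RRM_OE comparison and 51.6% in the endo_OE comparison, so many differences of that size would be missed at this depth.

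In piCLIP the polysomal libraries held 1213 and 4585.4 CPM in the intervals and the monosomal libraries 4657.1 and 7366.8 CPM. Both monosomal libraries were above both polysomal ones, with means of 2899.2 ± 2384.6 and 6011.9 ± 1916.0 CPM for polysomal and monosomal fractions (SD, n = 2 each) and an exact permutation p of 0.333, the smallest possible. These values rest on 28, 84, 244 and 235 events. The IgG libraries held 6542.4 CPM (73 events, 95% interval 5131.6 to 8219.1) for polysomal and 2601.9 CPM (3 events, 536.9 to 7584.9) for monosomal fractions, so the polysomal pull-down was not above its own IgG library. The strongest bin held 43.3 and 436.7 CPM in the polysomal pull-downs and 0 of the 73 polysomal IgG events, which by a limit of 3 counts allows up to 268.9 CPM. The bin at 21999001 held 130 and 54.6 CPM in the polysomal pull-downs and 1254.7 CPM in the IgG library. The neighbouring bin at 21998001 held 0 and 1091.8 CPM in the polysomal pull-downs, so 1 bin carried much of what replicate 2 held in the intervals. Short blocks held 60.7% and 64.3% of interval events in polysomal and 57.4% and 58.3% in monosomal libraries. Of 210 bins tested 1 lay in the region, and 0 bins were called by the quasi-likelihood test (0% of all bins, and 0 at an unadjusted p under 0.05 or with limma-voom in the region). On simulated data the test recovered 0% of changes of 2-fold, 4-fold and 8-fold here, so a count of 0 carries no information.

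Against WT iCLIP the piCLIP immunoprecipitates held 4455.6 ± 2519.7 CPM in the intervals and WT 2628.1 ± 1000.5 CPM (SD, n = 4 and 3), a ratio of 1.7 with an exact permutation p of 0.343. Of the 285 bins tested 2 lay in the region, and both were called lower in piCLIP, where 43.5% of all tested bins were called (24.2% higher and 19.3% lower). This depends on the scaling. The median log2 fold change over all bins was 0.87 with trimmed-mean scaling and 5.14 with library totals, and with the second the bin at 23673001 stood at 2.47 in place of -2.05 (adjusted p = 0.023 and 0.0393 by the quasi-likelihood test) and the strongest bin at -0.05 in place of -3.89. The call at 23673001 was also lost in 7 of 10 settings, among them limma-voom (-1.84) and without either monosomal library (-1.23 each). Measured levels in the bin at 23673001 were 86.6 and 327.5 CPM in polysomal and 210 and 344.8 CPM in monosomal libraries, against 54.2, 41 and 37 CPM in WT. Every piCLIP library was higher there on the CPM scale. All piCLIP libraries share a run that holds no iCLIP library, so method and run cannot be told apart.

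The authors' lists for mutZn, D27aa and WT, made per group, hold peaks in 109, 72 and 105 of the 119 blocks. A peak here is a single nucleotide with a low false discovery rate. The authors' lists held 7064 peaks in the intervals for mutZn (0.314% of its list), 694 for D27aa (2% of its list) and 11742 for WT (0.574% of its list). Peaks fell in all 19 long blocks for mutZn and WT and in 17 for D27aa, and in 90, 55 and 86 of the 100 short blocks for mutZn, D27aa and WT. The piCLIP list held 142 peaks in the intervals, 0.695% of that list, in 21 blocks. The lists differ widely in length, and the header of the WT list names 4 source tracks where 3 WT libraries are analysed here, so the shares of the lists are not compared further. The 3 WT libraries had events at 433, 1560 and 4184 positions in the intervals, together fewer than the 11742 WT peaks. Part of the WT list therefore has no event in these libraries, and its counts per block describe the list alone. The lists of the libraries without UV held 49 peaks in the intervals for mutZn (1.98% of its list), 14 for D27aa (1.65%) and 70 for WT (1.91%), in 11, 6 and 14 blocks.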

How the data were processed

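The authors deposited, per library, crosslink sites on mm9 as 1-nt intervals with a signed score: its size is the number of cDNAs and its sign the strand. The submitters' processing notes name CASAVA 1.4. Per the file headers, the authors called peaks with 100 permutations, a 15 nt neighbourhood, Ensembl 59 annotation and a false discovery rate limit of 0.05, and the peak lists carry a score as well. The aligner is not given in the sources used here. Scores were summed as events in 1 kb bins per strand over the genome (Python 3.11.15, pandas 2.3.3). Because scores are signed, a negative binomial quasi-likelihood F test was written in R 4.3.3 with limma 3.58.1. It used trimmed-mean scaling, trended dispersion and Benjamini-Hochberg adjustment over all bins tested. Groups were fitted together within each antibody or method, except that GFP_OE was fitted with WT across antibodies. For piCLIP against WT iCLIP, monosomal and polysomal libraries were joined as a single group and fitted with WT across methods. Tested bins had 15 events or more and reached, in at least 2 libraries (3 for piCLIP against WT), a CPM equal to 10 events in a library of median size. A bin could therefore pass through the libraries of a single group where it is high. On simulated counts for mutZn against WT the test recovered 62.7% of 2-fold and 95.5% of 4-fold changes, with 14 false calls of 185. For D27aa against WT it recovered 5.97% and 41.8%, and for mutZn against D27aa 13.4% and 47.8%. Totals of both intervals were compared by exact two-sided permutation (scipy 1.17.1).

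Named bins follow a rule: the 12 with the highest level, and per comparison up to 5 in each direction with the largest log2 fold change among those called with at least 20 events per library on average. Bin chr13:22107001-22108000 entered under mutZn against D27aa. Members, lists and tests were chosen with earlier results of these data known, and the split of blocks by length after seeing their levels. Alternatives were another test, scaling, filter, bin edges, positions counted once, run and replicate blocks, and leaving out each library. No sequences are shown, since no mm9 genome was used.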

Additional observations from a re-analysis of the deposited data

How the results depend on the processing

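Depth limits the anti-SRSF7 and piCLIP comparisons most, and most bins of the region were too sparse to test. Counts of called bins can include bins that passed the filter only through the group where they are high. Those counts that moved by more than 1.5 times were as follows. For mutZn against WT the count of 57 became 16 with each position counted once and 25 with the sequencing run as a block, and ranged from 10 to 58 when single libraries were left out. For D27aa against WT the count of 27 became 16 with each position counted once and ranged from 11 to 30 without single libraries. For mutZn against D27aa the count of 29 became 18 with the looser filter and 14 with the run as a block, and ranged from 13 to 20. For GFP_OE against WT the count of 0 became 9 with limma-voom and 5 with the looser filter, and ranged from 0 to 6. For piCLIP against WT iCLIP the count of 2 became 1 with limma-voom, 1 with library totals, 9 with the looser filter and 0 with each position counted once, and ranged from 1 to 7; the bin at chr13:23673001 turned to 2.47 with library totals. The cause of these changes was not tested, except that counting positions once caps dense sites in deep libraries by its construction. Shifting the bins by 500 nt moved no count of calls by more than 1.5 times.

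Totals were less stable where libraries disagree. The difference of mutZn minus WT, 60 CPM, became -389.7 CPM with each position counted once and ranged from -274 to 635.1 CPM without single libraries. GFP_OE minus WT ranged from -1057.0 to 1676.6 CPM. RRM_OE minus GFP_OE became 46.9 CPM and endo_OE minus GFP_OE 466.2 CPM with each position counted once, and they ranged from -2311.3 to 422.3 CPM and from -1810.1 to 923.4 CPM, the upper ends without GFP_OE replicate 4. D27aa minus WT kept its direction, at 1654.3 to 2563.4 CPM, and so did mutZn minus D27aa, at -2063.8 to -1792.7 CPM, polysomal minus monosomal, at -4798.9 to -1426.5 CPM, and piCLIP minus WT iCLIP, at 857 to 2908.3 CPM. Window thresholds of 0.25 and 1 CPM gave 148 and 84 blocks in place of 119. With long blocks from 250 nt or 400 nt, chosen after seeing the data, the short-block share averaged 39.6% and 53.9% in mutZn, 67.2% and 79.1% in D27aa, and 56.4% and 67.2% in WT.

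Replicate numbers shared by groups were not taken as a pairing, since the labels do not tie them to a culture, although for RRM_OE and GFP_OE they coincide with the sequencing run. The deviations of same-numbered libraries correlated at -0.03 for mutZn and WT, 0.38 for RRM_OE and GFP_OE and 0.50 for polysomal and monosomal libraries, with 2 shared numbers each. With the replicate number as a block the counts were 59, 0 and 0.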
